A study of Mus musculus with 21 samples.

Results

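The comparison described here was between oocytes of old mice that had received different sorted fractions of human mesenchymal stem cells: 3 libraries of the group Aged + LRP1high, titled old+lrp1high, against 2 of the group Aged + LRP1low, titled old+lrp1low. They are 5 of the 12 oocyte libraries and of the 21 libraries of the series, which also holds 9 libraries of granulosa cells, the somatic cells around the oocyte. In both groups female mice aged 18 months carried umbilical cord mesenchymal stem cells (UC-MSCs) under the ovarian capsule, sorted for a high or a low level of LRP1, a large surface receptor that binds and takes up many ligands. Oocytes described as MII, the stage at which meiosis pauses before fertilization, were collected 3 weeks after the transplantation. The study's methods give the mice as the ICR strain, and the oocytes were freed of granulosa cells with hyaluronidase and then of the zona with pronase. The titles call the libraries biological replicates, and how many animals or oocytes stand behind each is not given in the sources used here. The comparison asks whether transplantation of either fraction leaves a different transcriptome in the oocyte.

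An oocyte grows for weeks while it stores messenger RNA, then stops transcription before it ovulates, so the RNA of an MII oocyte is a store of maternal transcripts dominated by a limited set of very abundant messages. That set is well known: the zona pellucida glycoproteins of the egg coat, the secreted growth factors GDF9 and BMP15, proteins of the subcortical maternal complex that the early embryo needs, an oocyte form of linker histone, and regulators that keep stored messages silent until they are used. These genes give a direct check of what a library labelled as oocyte contains.

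Expression was deposited as FPKM, fragments scaled by transcript length and by library size, which puts genes of unequal length on 1 scale. The 3 Aged + LRP1high libraries held 2.29 to 3.15 gigabases of aligned sequence, and the 2 Aged + LRP1low libraries 0.515 and 0.278, so that for a gene of 1 kilobase a single read (150 bases) amounted to 0.0476 to 0.0656 FPKM in the former and 0.291 and 0.540 in the latter. Although they were shallower, the Aged + LRP1low libraries listed 47920 and 38934 genes at an FPKM of 1 or more, against 11026, 8071 and 4525 in Aged + LRP1high libraries 1, 2 and 3. Of 21899 protein-coding genes, 83.4% and 81.5% lay between 1 and 10 FPKM in the Aged + LRP1low libraries, compared with 21.7%, 14.0% and 7.99% in the Aged + LRP1high libraries. At the upper end, 23 and 31 protein-coding genes reached 100 FPKM in the Aged + LRP1low libraries and 631, 631 and 513 did in the Aged + LRP1high libraries. Protein-coding genes were therefore spread over a wide range of levels in 1 group and held within a narrow band of low levels in the other.

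**Figure D1:**
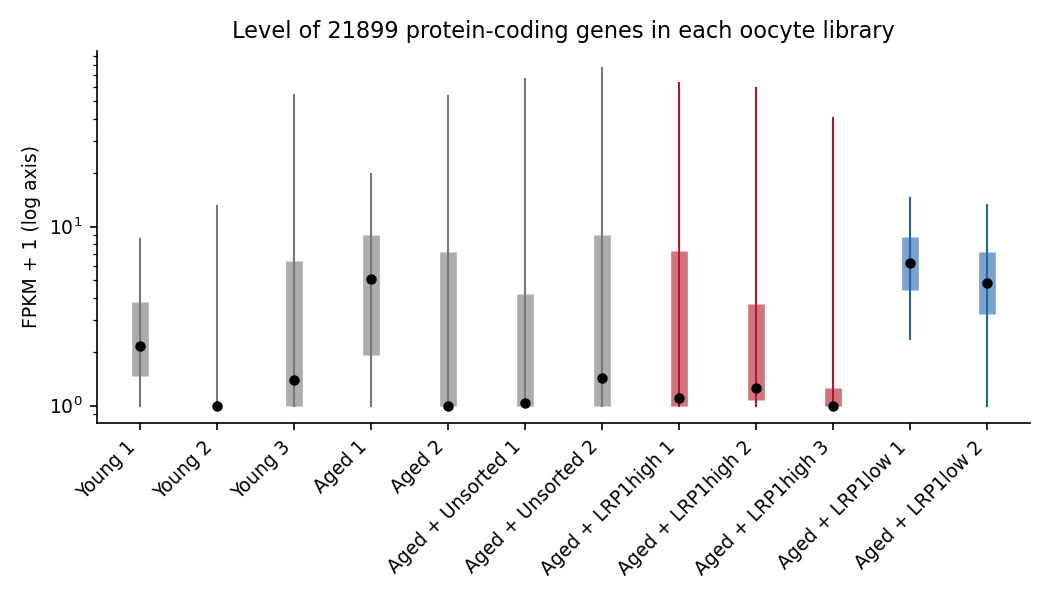
FPKM + 1 on a log axis for protein-coding genes in each of the 12 oocyte libraries; black points are medians, thick bars run from the 25th to the 75th percentile and thin lines from the 5th to the 95th. The Aged + LRP1low libraries (blue) have medians of 5.24 and 3.83 FPKM and short bars, and the Aged + LRP1high libraries (red) medians of 0.102, 0.253 and 0 with 95th percentiles of 39.2 to 62.3; the other libraries are grey.

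The oocyte markers divided the 5 libraries without overlap. Their median level was 799, 687 and 161 FPKM in Aged + LRP1high libraries 1, 2 and 3, and 5.02 and 7.77 FPKM in Aged + LRP1low libraries 1 and 2. Among protein-coding genes of the same library that median stood at the 99.8th, 99.7th and 98.5th percentile in Aged + LRP1high, and at the 47.2nd and 83.8th in Aged + LRP1low. All 10 markers were higher in every Aged + LRP1high library than in both Aged + LRP1low libraries, where 6.82% of all 28004 genes tested showed that separation. The mean level of the 10 markers, as log2(FPKM + 1), was 8.83 ± 0.89 (SD, n = 3) in Aged + LRP1high and 2.93 ± 0.57 (SD, n = 2) in Aged + LRP1low, a difference of 5.90. An exact two-sided permutation test gave p = 0.1, the smallest value that 3 libraries against 2 can reach. In Aged + LRP1low library 1 the markers thus lay near the level of the median protein-coding gene. In library 2 they lay higher, with Dppa3, Nlrp5 and Gdf9 at the 99.8th, 99.7th and 99.6th percentile. Every result below rests on these 2 libraries.

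Single markers showed the same separation with different margins. Bmp15, the growth factor that oocytes secrete to the cells around them, was measured at 722, 501 and 140.4 FPKM in the Aged + LRP1high libraries and at 1.19 and 0 FPKM in the Aged + LRP1low libraries, a difference of 7.97 ± 2.13 (SE) on the log2(FPKM + 1) scale (limma, adjusted p = 0.0312). Oosp1, a secreted protein of the oocyte, had 1006, 1386 and 679 FPKM against 3.54 and 4.63 (difference 7.60, adjusted p = 0.0402), and H1foo, the linker histone of oocytes, 2719, 1489.8 and 575 FPKM against 7.35 and 7.22 (difference 7.32, adjusted p = 0.0438). These 3 markers passed the criteria of the test, which are those of the study's methods (adjusted p under 0.05 together with a change of more than 1.5-fold). The other 7 did not, although their groups were apart. Under quantile normalization limma called 0 of the 10, with adjusted p of 0.0916 for Bmp15, 0.0839 for Oosp1 and 0.0982 for H1foo. Zp3, the sperm-binding glycoprotein of the zona, was at 876, 667 and 128 FPKM against 5.75 and 4.09 (difference 6.17, limma adjusted p = 0.0671), while Zp1, which crosslinks zona filaments, was at 219, 277 and 90.2 FPKM against 8.83 and 6.89 (difference 4.33, adjusted p = 0.0597). Zp2 had 524, 143 and 169 FPKM against 3.39 and 8.32. Gdf9, the partner of Bmp15, had 1181, 1427 and 483 FPKM against 9.66 and 27.2, and Dppa3, which guards maternal DNA methylation, 1454, 1521 and 1054 FPKM against 5.27 and 65.3. The margin was narrowest for Nlrp5, a member of the subcortical maternal complex, at 192, 178 and 34.7 FPKM against 4.76 and 33.96, and Ooep of the same complex lay at 352, 708 and 154 FPKM against 3.30 and 8.35. Aged + LRP1low library 2 was above library 1 for 6 of the 10 markers, and Aged + LRP1high library 3 was the lowest of its group for 9 of them.

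**Figure D2:**
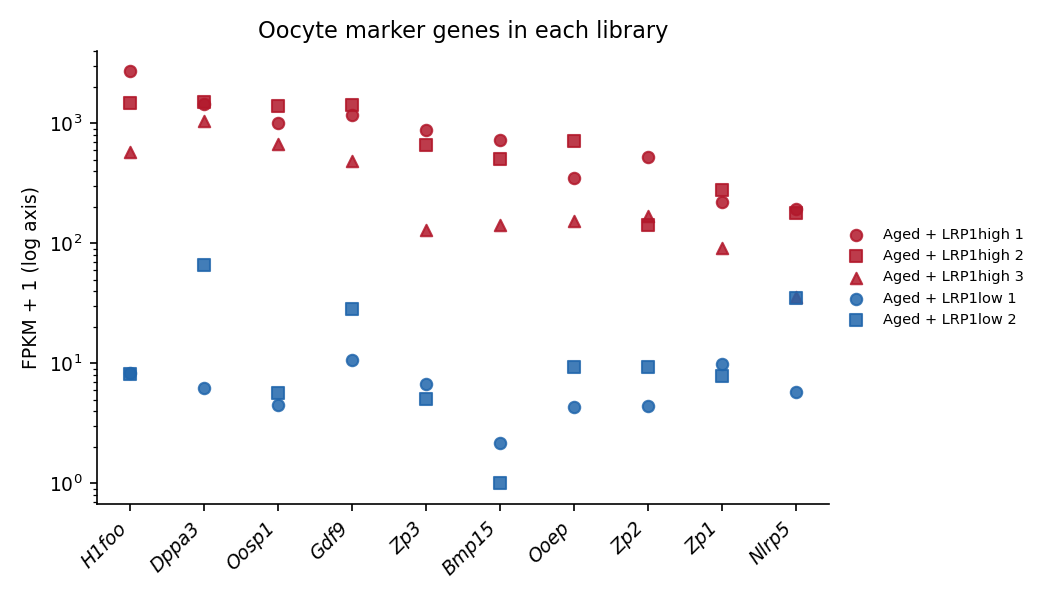
FPKM + 1 on a log axis for the 10 oocyte markers, 1 point for each library; red points are Aged + LRP1high and blue points Aged + LRP1low. For every marker the red points lie above the blue points, and Nlrp5 has the smallest gap, with 34.7 FPKM in the lowest red library and 33.96 in the highest blue one.

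Across all genes the calls ran in opposite directions for abundant and scarce transcripts. Of the 28004 genes with a mean of at least 1 FPKM over the 12 oocyte libraries, 340 (1.21%) were called higher in Aged + LRP1high and 6951 (24.8%) were called lower, with all 5 oocyte groups in 1 limma model. The median difference over all genes was -1.89 on the log2(FPKM + 1) scale. All 3 Aged + LRP1high libraries lay above both Aged + LRP1low libraries for 1909 genes and below both for 17530 (62.6%). When the values were quantile normalized, which gives every library the same distribution and moved the median difference to -0.01, 148 genes (0.528%) were called higher and 556 (1.99%) lower. The calls needed all 3 Aged + LRP1high libraries: without library 1, 2 or 3 of that group limma called 0 genes in either direction, with 642 to 1033 higher and 9302 to 10800 lower at an unadjusted p under 0.05, so each call named here was lost in those fits. Without Aged + LRP1low library 1 there were 2 genes called higher and 1788 lower, and without library 2 there were 0 and 1684.

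The differences followed the level of a gene in the other 7 oocyte libraries. Those libraries enter the filter and the shared spread, but not the difference itself. A gene with a mean under 1 FPKM there passed the minimum over all 12 libraries only through the 5 libraries compared, so the direction of these 6046 genes, 3890 of them among the 6951 called lower, was largely fixed by the filter and is not read further. Of the 7796 genes of 1 to 2 FPKM there, 1848 were called lower. Some of these 7796 also needed the 5 libraries to pass, so this group is not read further either. Genes of 2 FPKM or more there pass without the 5 libraries. The median difference was -1.83 for genes of 2 to 5 FPKM, -0.84 for genes of 5 to 10 FPKM, 0.63 for genes of 10 to 30 FPKM and 2.43 for genes of 30 to 100 FPKM. For the 494 genes at 100 FPKM or more it was 4.50, with 31.4% called higher and 1.21% called lower. Genes of 30 to 100 FPKM and of 100 FPKM or more gave 124 and 155 of the 340 calls upward.

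**Figure D3:**
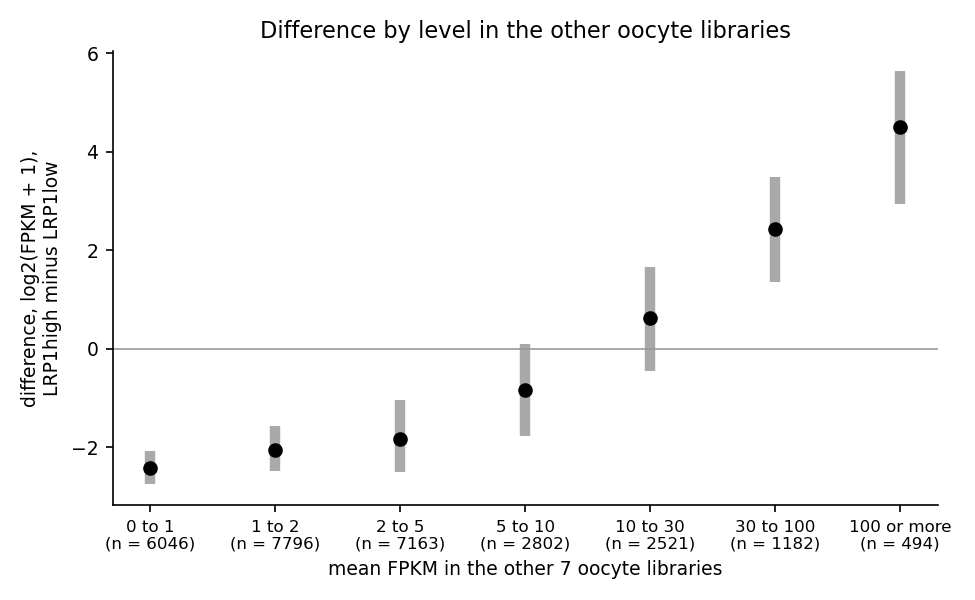
Difference in log2(FPKM + 1), Aged + LRP1high minus Aged + LRP1low, for genes grouped by mean FPKM in the other 7 oocyte libraries; points are medians over genes and bars run from the 25th to the 75th percentile. The median rises from -1.83 at 2 to 5 FPKM to 4.50 at 100 FPKM or more. Genes in the lowest group, and some in the group of 1 to 2 FPKM, passed the filter only through the 5 libraries compared.

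The genes with the largest differences upward were led by abundant maternal transcripts. Skp1a, the adaptor that joins F-box proteins to the SCF ubiquitin ligase, was measured at 4318, 14349 and 4087 FPKM in the Aged + LRP1high libraries and at 4.96 and 7.71 FPKM in the Aged + LRP1low libraries (difference 9.78 ± 2.62 SE, limma adjusted p = 0.0314). Paip1, which binds the poly(A)-binding protein in translation, had 8411, 14483 and 17249 FPKM against 8.27 and 24.0 (difference 9.72, adjusted p = 0.0220). For Sod1, the cytosolic superoxide dismutase, the values were 9899, 12944 and 13185 FPKM against 6.22 and 36.5 (difference 9.50, adjusted p = 0.0221). All 3 genes were over 100 times more abundant in every library of 1 group than in either library of the other. Spin1, a spindle-associated maternal protein that acts in the resumption of meiosis, was at 3888, 1289 and 7645 FPKM against 4.33 and 4.11 (difference 9.34, adjusted p = 0.0193), and Lsm14b, an RNA-binding protein of stored messages, at 1069, 3382 and 3984 FPKM against 5.27 and 1.503 (difference 9.26, adjusted p = 0.0201). The next were Kdelr2, a receptor that returns proteins to the endoplasmic reticulum (9.07), Insig1, a regulator of sterol synthesis (8.92), the oocyte F-box gene Fbxw24 (8.58), Actb, which encodes beta-actin (8.35), the RNA demethylase gene Alkbh5 (8.21), the histone demethylase gene Kdm6b (8.20), the mitochondrial protein gene Nipsnap2 (8.01), Rgs2, a brake on G protein signalling (7.87), and Gm813 (7.70). These 15 genes, Bmp15 included, were taken from those whose groups do not overlap. Under quantile normalization Sod1, Fbxw24, Bmp15 and Gm813 were not called (limma adjusted p of 0.0744, 0.0655, 0.0916 and 0.117). The others of the 15 kept their calls. With 1 of the 5 libraries left out the adjusted p of Skp1a ran from 0.0851 to 0.174 and that of Actb from 0.0508 to 0.0914.

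Skp1a and genes of the oocyte F-box family lay higher in Aged + LRP1high. Fbxw genes of the cluster on chromosome 9 are expressed in oocytes, and their proteins are thought to pair with SKP1, CUL1 and RBX1. All 14 genes of this list, which holds Skp1a beside the Fbxw genes, were tested. Of these, 9 were called higher (1.21% of all genes) and 0 lower (24.8% of all genes), and 13 were higher in every Aged + LRP1high library (6.82% of all genes), with a median difference of 6.28 against -1.89 over all genes tested. Fbxw24 had 1217, 792 and 409 FPKM against 2.68 and 0, and Fbxw14 1151, 918 and 362 FPKM against 3.68 and 3.75 (difference 7.27, limma adjusted p = 0.0361). Members of the family are near copies of each other, and how reads that fit several members were divided is not given in the sources used here, so single members are less certain than the family. The core subunits Cul1 (194, 124 and 23.4 FPKM against 8.83 and 6.59) and Rbx1 (92.4, 179 and 59.9 FPKM against 17.9 and 5.68) lay apart by smaller margins and were not called. Under quantile normalization 2 of the 14 genes were called higher, and the median difference was 6.59.

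The upstream sequence of 4 genes that lay higher in every Aged + LRP1high library is shown. The E-box, CANNTG, is the element through which the oocyte factor FIGLA is known to act on zona genes. Each window holds the 250 bases before the RefSeq start in GRCm38, with every match to CANNTG in capitals. This motif reads the same on both strands, so a match on 1 strand is a match on the other. The windows are Zp3 at chr5:135979855-135980104 on the plus strand, Oosp1 at chr19:11691052-11691301 on the minus strand, Bmp15 at chrX:6320725-6320974 on the minus strand and Skp1a, named Skp1 in RefSeq, at chr11:52231745-52231994 on the plus strand. The deposited files start Oosp1 upstream of the RefSeq start, so part of its window lies inside the gene as they annotate it.
Zp3: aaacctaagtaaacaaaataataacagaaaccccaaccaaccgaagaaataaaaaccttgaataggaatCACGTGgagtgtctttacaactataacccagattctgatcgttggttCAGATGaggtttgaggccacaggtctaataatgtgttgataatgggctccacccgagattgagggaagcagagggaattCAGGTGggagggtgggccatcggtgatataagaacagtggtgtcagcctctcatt
Oosp1: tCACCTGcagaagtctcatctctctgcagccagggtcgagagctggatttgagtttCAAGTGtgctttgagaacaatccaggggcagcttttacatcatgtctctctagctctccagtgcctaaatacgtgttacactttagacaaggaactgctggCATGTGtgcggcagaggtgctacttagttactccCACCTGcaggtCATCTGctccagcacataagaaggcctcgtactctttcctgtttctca
Bmp15: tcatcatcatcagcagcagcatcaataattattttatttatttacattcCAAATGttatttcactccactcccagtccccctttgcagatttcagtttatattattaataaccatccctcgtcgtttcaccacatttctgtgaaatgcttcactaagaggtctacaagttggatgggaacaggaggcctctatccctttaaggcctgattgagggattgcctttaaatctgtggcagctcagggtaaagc
Skp1a: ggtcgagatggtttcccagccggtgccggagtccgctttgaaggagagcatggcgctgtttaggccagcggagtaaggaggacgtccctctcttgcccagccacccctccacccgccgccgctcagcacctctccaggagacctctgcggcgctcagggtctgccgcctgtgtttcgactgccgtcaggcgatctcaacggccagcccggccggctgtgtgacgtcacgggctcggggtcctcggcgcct
Zp3 held 3 matches, the nearest beginning 55 bases before the start, Oosp1 held 5 and Bmp15 held 1, while the window of Skp1a held 0. Of 32851 RefSeq windows of the same length 66.2% held at least 1 match. The form CAGGTG, counted on either strand, was present in the windows of Zp3 and Oosp1 and in 17.2% of all windows. Figla itself was listed at 7.71, 26.04 and 0.886 FPKM in the Aged + LRP1high libraries and at 10.1 and 0 FPKM in the Aged + LRP1low libraries, so its groups overlapped.

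Other groups of maternal genes had medians on the same side. For zona pellucida and secreted oocyte proteins, 4 of 10 genes were called higher (Bmp15, Oosp1, Oosp2 and Oosp3), beside 1.21% of all genes, and the median difference was 5.96. Under quantile normalization limma called 0 of these 10, with a median difference of 5.79. In the subcortical maternal complex, 2 of 8 were called higher: Zbed3, at 2139, 1202 and 782 FPKM against 6.62 and 9.34 (difference 7.15, limma adjusted p = 0.0333), and the core member Tle6, at 409, 886 and 347 FPKM against 5.74 and 8.96 (difference 5.94, adjusted p = 0.0454). Khdc3 of that complex was the member whose groups overlapped, with 434, 184 and 7.61 FPKM against 6.24 and 12.05. Of 14 genes for chromatin and DNA methylation in the oocyte, 5 were called higher and 1 lower, beside 1.21% and 24.8% of all genes, and the median difference was 2.05. The higher ones were H1foo, the histone chaperone genes Npm2 and Npm3, and Uhrf1 and Dnmt1, which maintain DNA methylation, and the lower one was Hira, which deposits the replacement histone H3.3. Npm2 had 749.8, 1560.3 and 653 FPKM against 4.44 and 5.51 (difference 7.26, adjusted p = 0.0314). The de novo methyltransferase gene Dnmt3a, in contrast, was at 27.4, 15.2 and 42.4 FPKM against 24.6 and 15.2, with overlapping groups.

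Genes that store, translate and remove maternal messages were next. Of 23 tested, 7 were called higher (1.21% of all genes) and 0 lower (24.8% of all genes), with a median difference of 3.29. The 7 included Paip1, Lsm14b, the polyadenylation factor Cpeb1 (537, 680 and 737 FPKM against 9.91 and 2.35, difference 6.74, limma adjusted p = 0.0202), the RNA-binding protein gene Ybx2 (187, 276 and 109 FPKM against 6.73 and 0, difference 6.01, adjusted p = 0.0210) and Zar1, an organizer of the mitochondria-associated RNA store (361, 582 and 179 FPKM against 7.64 and 4.10, difference 5.66, adjusted p = 0.0258). Btg4, the adaptor of the deadenylase that clears maternal messages, had 998, 2346 and 719 FPKM against 11.6 and 13.9 and stood just outside the threshold (difference 6.44, adjusted p = 0.0504). Of 30 genes of meiotic arrest, cell cycle and spindle, Spin1 and Pttg1, the inhibitor of separase, were called higher. The meiotic cohesin genes Rec8 and Stag3 were called lower, beside 1.21% higher and 24.8% lower of all genes. Between the groups 19 of these 30 overlapped, as did 8565 of all 28004 genes. Pttg1 was at 3796, 1346 and 627 FPKM against 5.98 and 6.74 (difference 7.65, adjusted p = 0.0419). Among oocyte transcription factors 1 of 10 was called higher, beside 1.21% of all genes. It was Foxo3, which restrains the activation of primordial follicles, at 634, 757 and 1233 FPKM against 9.11 and 3.30 (difference 6.99, limma adjusted p = 0.0286).

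Lists of general cell function also had medians above 0, against 1.07 for the 30 genes of meiotic arrest, cell cycle and spindle. Over all genes tested 1.21% were called higher and 24.8% lower, and 8565 of 28004 overlapped between the groups. The 12 housekeeping genes had a median difference of 2.57, with Actb and the tubulin gene Tubb5 called higher. Of 80 nuclear genes of the respiratory chain, 5 were called higher and 0 lower (median difference 2.01); Cox6a1, a subunit of cytochrome c oxidase, was at 251, 487 and 247 FPKM against 4.45 and 12.5. For 88 cytosolic ribosomal protein genes, 3 were called higher and 1 lower (median difference 2.13), and for 38 proteasome genes 0 and 2, with a median difference of 1.76; the 2 proteasome genes called lower, Psmb8 and Psmb10, encode subunits of the immunoproteasome. Of 18 antioxidant genes 2 were called higher, Sod1 and the peroxiredoxin gene Prdx2 (234, 444 and 173 FPKM against 12.6 and 8.81), and 1 lower, the glutathione reductase gene Gsr. In 10 genes of mitochondrial fission, fusion and import limma called 0 genes, and 7 overlapped between the groups.

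**Figure D4:**
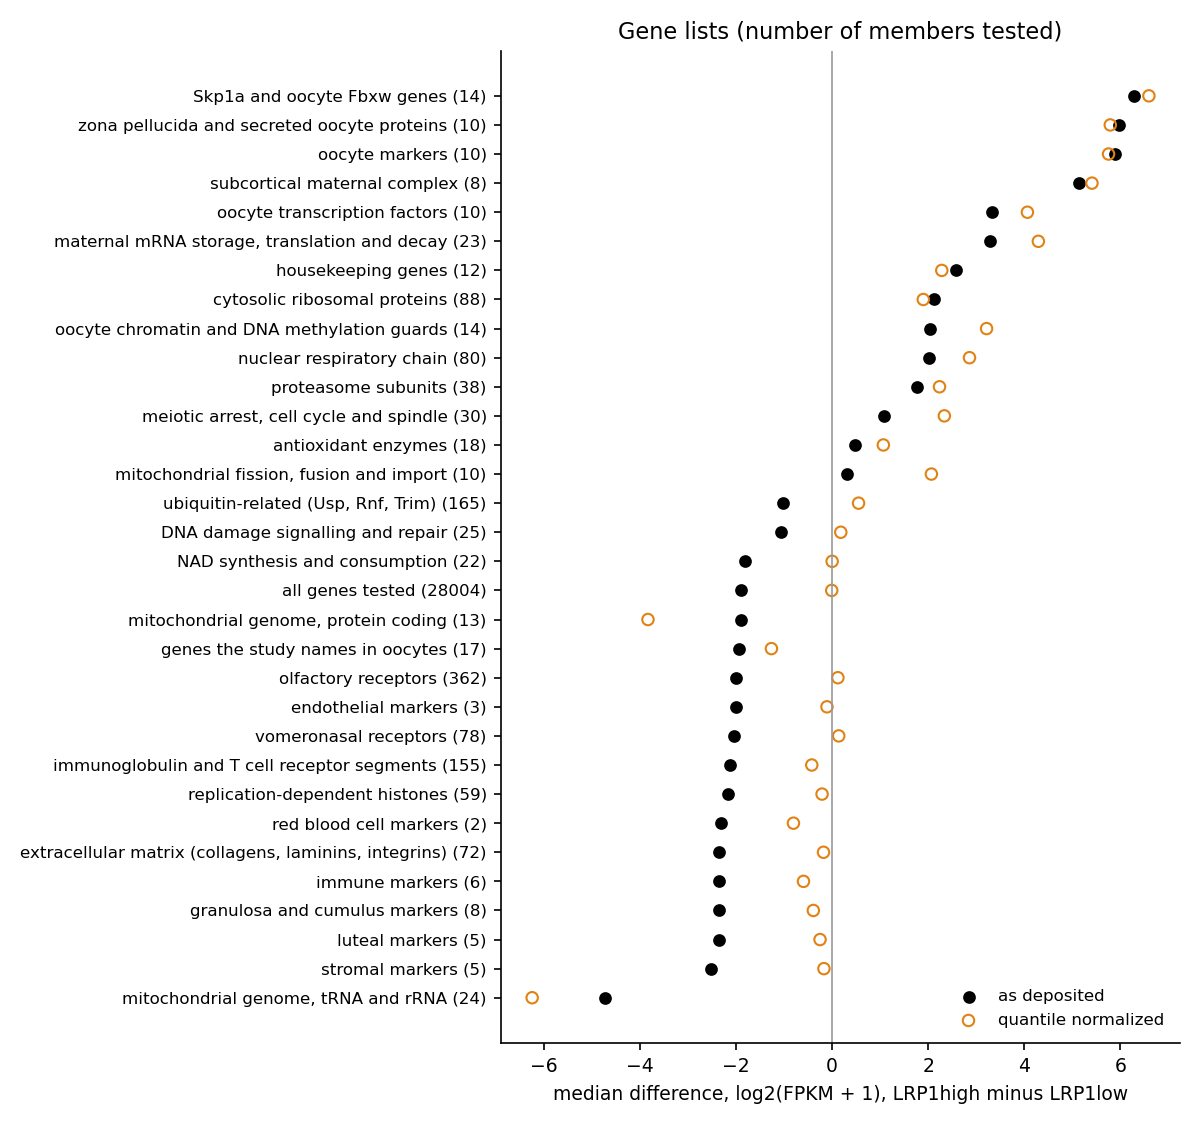
Median difference in log2(FPKM + 1), Aged + LRP1high minus Aged + LRP1low, for each gene list, with the number of members tested; filled points are the deposited values and open points the quantile-normalized ones. Lists of oocyte genes lie on the right under both scalings, the tRNA and rRNA genes of mitochondria lie on the left under both, and lists of genes of other tissues move toward 0 under quantile normalization.

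The largest differences downward included repeats, pseudogenes and short RNA genes, again taken from genes whose groups do not overlap. Gm10719 at chr9:3017408-3021593, annotated as protein-coding, was at 1.78, 26.02 and 24.1 FPKM in the Aged + LRP1high libraries and at 991 and 1602 FPKM in the Aged + LRP1low libraries (difference -6.67 ± 1.79 SE, limma adjusted p = 0.0314). Gm23935, annotated as a miRNA gene, had 3.21, 66.7 and 17.1 FPKM against 1499 and 947 (difference -6.11, adjusted p = 0.0328), and the pseudogene Gm10060 0, 1.31 and 1.14 FPKM against 101.2 and 115 (difference -6.001, adjusted p = 0.0201). All 3 genes differed by less than 2 times between the 2 Aged + LRP1low libraries. Further genes among the 10 largest were mt-Tk (-5.43), Gm21769 (-5.24), Gm13245 (-5.04), AW822073 (-4.94) and Mir6546 (-4.92). Under quantile normalization none of the genes just named was called (limma adjusted p of 0.0567 for Gm10719, 0.0757 for Gm23935 and 0.0758 for Gm10060). The rRNA genes Gm23647 and Gm24089, also among the 10 largest, kept their calls. With 1 of the 5 libraries left out, the adjusted p of Gm10719 was 0.0775 to 0.149.

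Their sequences are shown because copies that cannot be told apart by a read limit what these values measure. They are from GENCODE M21 on GRCm38, written 5′ to 3′. For Gm10719 the first 240 bases of the longest transcript are given, with the word TCTCATTTT in capitals, which occurs 9 times in its 681 bases; the sequence is built of repeats related to the major satellite of mouse centromeres. Gm10060 (chr8:19784746-19784856, plus strand) and Gm21769 (chr8:20122384-20122494, plus strand) differ at the 1 base in capitals.
Gm10719: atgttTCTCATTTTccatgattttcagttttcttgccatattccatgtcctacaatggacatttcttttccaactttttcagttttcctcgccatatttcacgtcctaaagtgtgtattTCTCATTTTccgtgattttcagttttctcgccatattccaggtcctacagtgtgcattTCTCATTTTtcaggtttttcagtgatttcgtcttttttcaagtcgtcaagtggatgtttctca
Gm10060: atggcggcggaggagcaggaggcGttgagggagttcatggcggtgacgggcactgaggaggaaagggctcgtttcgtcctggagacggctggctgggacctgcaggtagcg
Gm21769: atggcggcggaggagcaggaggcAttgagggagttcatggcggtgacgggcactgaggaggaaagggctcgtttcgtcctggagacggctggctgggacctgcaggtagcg
Gm10060 and Gm21769 differ by G24A, counted from the first base, over 111 bases. The FPKM of each copy is therefore a share of a family total that depends on how the authors' counting divided such reads.

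The 10 largest differences among protein-coding genes called lower, again without overlap between the groups, were of mixed kinds. They held Gm10719, AW822073, Gm3448 and mt-Nd4l beside genes of cell junctions, adhesion and signalling. Plekha7, a protein of cell junctions, was at 0, 1.07 and 0.0773 FPKM against 27.4 and 25.3 (difference -4.39, limma adjusted p = 0.0241) and Ank2, which links membrane proteins to the spectrin skeleton, at 0.011, 0.839 and 0.239 FPKM against 33.2 and 19.3 (difference -4.32, adjusted p = 0.0192). Tns1, a protein of focal adhesions (-4.26), and the histamine receptor gene Hrh1 (-4.22) followed. Duxf3, a homeobox gene known to switch on genes of the early embryo, was at 0, 2.68 and 0.704 FPKM against 68.2 and 41.4 (difference -4.88, adjusted p = 0.0287), and AW822073 lies next to it on chromosome 10. Under quantile normalization Duxf3 was not called (limma adjusted p = 0.125), while Plekha7 and Ank2 kept their calls. In Plekha7 the 2 Aged + LRP1low libraries were within a few FPKM of each other. Over protein-coding genes, the longest transcript had a median of 3363 bases for the 3667 called lower, 2743 bases for the 299 called higher and 3157 bases for all 16778 tested, and the median GC content was 51.1%, 46.8% and 49.9%.

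Among transcripts of the mitochondrial genome, the tRNA and rRNA genes had the lowest median difference, while the messenger RNAs had a median of -1.90, near the -1.89 of all genes. Under quantile normalization the messenger RNAs moved away from all genes, with a median of -3.83 against -0.01. All 37 genes of this genome were tested, and 4 (10.8%) were called lower, beside 24.8% of all genes: mt-Nd2 and mt-Nd4l, which encode subunits of complex I, and the tRNA genes mt-Tk and mt-Tg. The 13 messenger RNAs had medians of 147, 128 and 43.5 FPKM in the Aged + LRP1high libraries and 436 and 359 in the Aged + LRP1low libraries. The 22 tRNAs had medians of 4.01, 22.3 and 33.2 FPKM against 462 and 450.0, so that their median was 0.0274, 0.174 and 0.761 times that of the messenger RNAs in Aged + LRP1high and 1.06 and 1.25 times it in Aged + LRP1low. Of the 24 tRNA and rRNA genes 23 were lower in every Aged + LRP1high library than in both Aged + LRP1low libraries, beside 62.6% of all genes, and the median difference of these 24 was -4.73, and -6.24 after quantile normalization. mt-Tk was at 0.911, 6.27 and 17.9 FPKM against 241 and 314. The messenger RNA of mt-Cytb, a subunit of complex III, was at 1175, 277 and 416 FPKM against 620.2 and 568, with overlapping groups, as was mt-Atp6 of the ATP synthase at 755, 308 and 59.5 FPKM against 305 and 272. The ribosomal RNAs mt-Rnr1 (217, 332 and 207 FPKM against 593 and 666) and mt-Rnr2 (339.7, 388 and 319 FPKM against 561 and 659.6) did not overlap and did not pass the test.

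**Figure D5:**
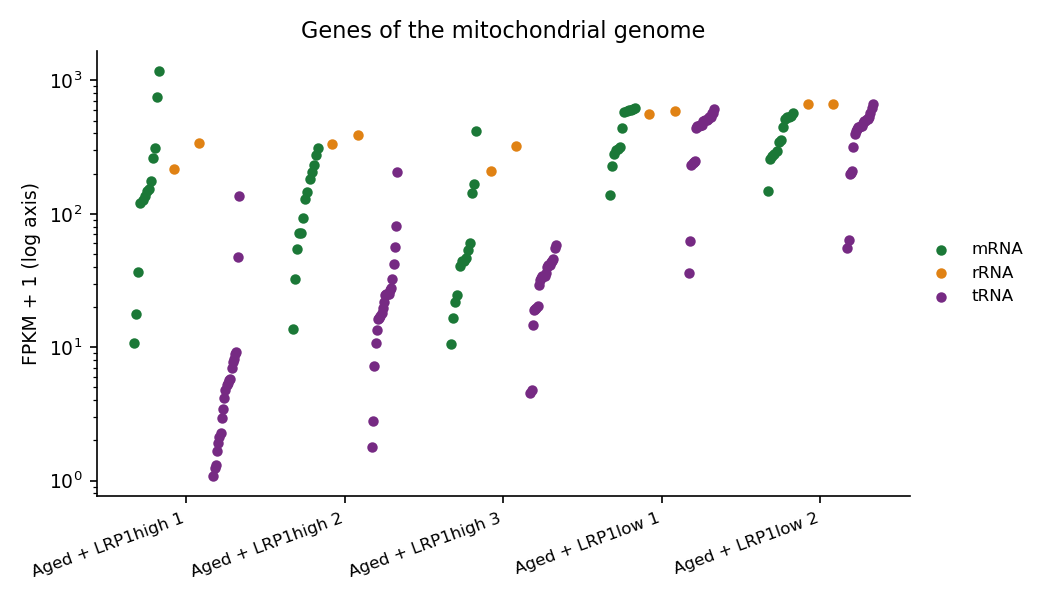
FPKM + 1 on a log axis for the 37 genes of the mitochondrial genome in each library, 1 point a gene, as messenger RNA, ribosomal RNA and tRNA. In the Aged + LRP1low libraries the 3 classes lie at like levels, with tRNA medians of 462 and 450.0 FPKM, and in the Aged + LRP1high libraries the tRNA medians are 4.01, 22.3 and 33.2 FPKM.

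Gene families that oocytes are not known to use were listed across the Aged + LRP1low libraries. For a gene of 1 kilobase, 1 read amounted to 0.291 and 0.540 FPKM there, so 1 FPKM stood for only a few reads. In the Aged + LRP1high libraries 1 such read amounted to 0.0476 to 0.0656 FPKM. Of 1108 olfactory receptor genes, which are expressed in the nose, 97.1% and 83.6% were at 1 FPKM or more in these libraries and 1.26%, 0.632% and 0.271% in the Aged + LRP1high libraries. For 329 vomeronasal receptor genes the shares were 97.6% and 92.4% against 1.22%, 0.608% and 0.304%. Immunoglobulin and T cell receptor segments, whose use belongs to lymphocytes, reached 78.5% and 36.2% of 636 segments against 1.26%, 1.89% and 0.314%. Olfr139 was listed at 0 in all Aged + LRP1high libraries and at 13.2 and 18.0 FPKM in the others. By class of gene, 88.6% and 67.5% of 13128 long non-coding and unclassified genes and 79.3% and 57.8% of 13520 pseudogenes were at 1 FPKM or more in the Aged + LRP1low libraries, compared with 1.51% to 6.49% and 2.77% to 6.66% in the Aged + LRP1high libraries. Nearly every class of annotated gene was thus listed at a low level in the Aged + LRP1low libraries.

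Markers of the other cell types of the ovary were at the same low level. Granulosa and cumulus markers had a summed level of 48.9 and 47.2 FPKM over 10 genes in the Aged + LRP1low libraries and of 0.0254 to 7.95 FPKM in the Aged + LRP1high libraries, where Amh, Fshr, Has2 and Tnfaip6 were listed at 0. Luteal markers summed to 33.1 and 32.8 FPKM against 0.143 to 8.92, stromal markers to 38.8 and 33.4 against 0.289 to 1.25, immune markers to 42.5 and 38.1 against 0.0194 to 1.25, endothelial markers to 24.0 and 22.1 against 0.988 to 10.1, and red blood cell markers to 25.6 and 7.25 against 0 to 0.677. Within these 6 lists 12 of 29 genes tested were called lower in Aged + LRP1high, beside 24.8% of all genes, and 0 higher. Under quantile normalization 2 were called lower, Cyp11a1 and Col1a2. Members such as Tnfaip6, C1qa and Col1a2 passed the minimum over all 12 libraries only through the Aged + LRP1low libraries. That largely fixed their direction, so the lower count is not read further. For single genes, Ptprc, which marks leukocytes, was at 0, 0.243 and 0.524 FPKM against 12.1 and 10.7 (difference -3.33, limma adjusted p = 0.0192). Col1a2, a collagen of stroma, was at 0.0109, 0.476 and 0.0389 FPKM against 13.5 and 13.9. Median levels of these 6 lists in the Aged + LRP1low libraries, 1.68 to 6.54 FPKM, were close to the medians of all protein-coding genes there, 5.24 and 3.83. In bulk samples fewer cells of a type and less RNA per cell cannot be told apart, and the part that other cells, depth or the flat profile has in the differences was not tested.

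The themes that the study follows in these oocytes were extracellular matrix, ubiquitin-dependent processes, NAD metabolism and DNA damage. Of 17 oocyte genes it names, 7 were called lower in Aged + LRP1high and 0 higher, and 12 were lower in every Aged + LRP1high library, where 24.8% and 62.6% of all genes did the same. The study chose these genes on the same samples, so their direction is not independent evidence. Their median difference of -1.94 was close to the -1.89 of all genes tested. The 7 were Nmnat3, which makes NAD in mitochondria, at 0, 0.0556 and 0.190 FPKM against 15.1 and 11.5 (difference -3.72 ± 0.70 SE, limma adjusted p = 0.0192), Rptor, a component of mTORC1, at 0.449, 0.279 and 0.0999 FPKM against 14.3 and 14.6 (difference -3.61, adjusted p = 0.0216), the ubiquitin ligase gene Trim2 (-3.44), the chromatin genes Smarcad1 (-3.21) and Smchd1 (-3.17), the splicing and repair factor gene Prpf19 (-2.96) and Utrn, the utrophin gene (-2.89). Nmnat3, Rptor, Smarcad1 and Smchd1 were also called lower under quantile normalization. The differences of the other 10 were -2.28 for Cep63, -1.94 for Bst1, -1.80 for Rnf41, -1.56 for Lama5, -1.52 for Usp21, -1.41 for Tiprl, -1.40 for Chek2, -1.38 for Usp10, -0.88 for Nadk and -0.76 for Bfar. Quantile normalization turned the sign of Bst1, Rnf41, Lama5, Tiprl, Chek2 and Nadk.

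The wider lists behind these themes showed how far their direction followed the scaling. Of 81 genes of collagens, laminins and integrins 72 were tested, 37 of which were called lower and 1 higher, beside 24.8% and 1.21% of all genes, and the median difference moved from -2.35 to -0.18 under quantile normalization, when 3 were called lower and 1 higher. The gene called higher was Col22a1, a collagen of tissue junctions, at 10.9, 28.2 and 33.2 FPKM against 3.45 and 2.67 (difference 2.50, limma adjusted p = 0.0440). The laminin gene Lamb1 was also above the other group in all 3 libraries (89.4, 74.4 and 14.2 FPKM against 6.09 and 9.96), without passing the test. Of 165 Usp, Rnf and Trim genes tested, 22 were called lower and 0 higher, beside 24.8% and 1.21% of all genes. Their median difference moved from -1.02 to 0.55. NAD genes had 5 of 22 called lower (Nmnat3, Sirt3, Nnt, Nmnat2 and Cd38), beside 24.8% of all genes, and 1 higher. Their median moved from -1.82 to 0.00. The one called higher was Sirt6, a nuclear deacylase that uses NAD, at 364, 791 and 1001 FPKM against 6.72 and 3.44 (difference 6.82, adjusted p = 0.0207), and in the other 7 oocyte libraries it ranged from 4.91 to 356 FPKM. DNA damage genes had 5 of 25 called lower (Rptor, Atr, Smarcad1, Smchd1 and Prpf19), beside 24.8% of all genes, and their median moved from -1.07 to 0.18. The 1 called higher, and not called under quantile normalization, was Xrcc6, which encodes a subunit of Ku in end joining, at 21.2, 45.1 and 189 FPKM against 8.20 and 3.05 (difference 3.25, adjusted p = 0.0425). Of 70 histone genes of the replication-dependent clusters 59 were tested, and 21 were called lower (24.8% of all genes) and 0 higher. Under quantile normalization 1 was called lower and the median moved from -2.17 to -0.21. Hist1h2ak was listed at 0 in all Aged + LRP1high libraries and at 10.2 and 9.56 FPKM in the others. It passed the minimum over all 12 libraries only through the Aged + LRP1low libraries, as did Col1a2 and Col3a1 among the collagens. The lower counts of the histone and the matrix lists were thus partly fixed by the filter and are not read further. The share of 24.8% carries the same limit, since 3890 of the 6951 lower calls were largely fixed by the filter. Lower calls made up 14.6% of genes of 2 to 5 FPKM in the other 7 oocyte libraries. At 5 to 10 and 10 to 30 FPKM there they made up 5.14% and 0.516%. The shares of these lists are therefore not ranked against 24.8%.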

How the data were processed

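The 12 oocyte libraries were read from the files of the libraries, with groups taken from their titles. The submitters' processing notes name HISAT2 2.2.1 and StringTie 1.3.3b. The deposited FPKM is scaled by transcript length and library size, the deposited TPM has 1 common total across libraries, and coverage, also deposited, gives how many reads lie over each base of a gene on average. The labels name a stranded KAPA kit and the study's methods Smart-seq2; whether strand was used in counting is not given in the sources used here. The labels name mm9, but 54577 of 55335 identifiers had the version and coordinates of GENCODE M21 on GRCm38, which was used for gene types and positions. FPKM was summed over repeated identifiers (10 to 16 in each of the 5 libraries). Depth was estimated from coverage divided by FPKM, as a median over 21693 single-exon genes. Without read counts, counting error could not be given.

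Genes averaging 1 FPKM or more were fitted as log2(FPKM + 1) in limma 3.58.1 (R 4.3.3; lmFit, eBayes). All 12 oocyte libraries in 5 groups shared 1 estimate of spread, and p-values were adjusted over all 28004 genes by the Benjamini-Hochberg method. Calls required an adjusted p under 0.05 together with a change of more than 1.5-fold. Differences of low genes are understated by the pseudocount. The fit was run on simulated data, where recovery of changed genes was required only at 0.1 times the residual spread of these libraries. At the real spread only the absence of calls in the wrong direction was required. The marker level was compared by an exact two-sided permutation test (scipy 1.17.1). The members and the 31 gene lists were chosen with earlier results of these data known. Named genes were the 15 largest called higher and 10 largest called lower without overlap, the 10 largest such protein-coding genes called lower, the 3 most abundant members and the 2 with the largest difference in each list, all oocyte markers and all oocyte genes the study names; other members named to spell out a short count, and Cul1, Rbx1, Khdc3, Dnmt3a, Cpeb1, Ybx2, Zar1 and Figla, were chosen after their values were seen. Alternatives were quantile normalization, TPM, a pseudocount of 0.1, no filter, a filter at 10 FPKM, the 5 libraries alone, trend and robust settings, a replicate block, unadjusted p-values and each library left out. Files of granulosa cells were not used here, and some genes that met the naming rule are not reported here.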

Additional observations from a re-analysis of the deposited data

How the results depend on the processing

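The mean difference of the oocyte markers kept its direction under every alternative tried, at 5.75 under quantile normalization, 6.27 with a pseudocount of 0.1, 6.51 with TPM, and 5.50 to 6.42 with 1 of the 5 libraries left out. The counts of calls, 340 higher and 6951 lower, did not keep their size. Higher and lower calls were 148 and 556 under quantile normalization, 0 and 0 with a pseudocount of 0.1 (546 and 13445 at an unadjusted p under 0.05), 144 and 17 at a minimum of 10 FPKM, and 1334 and 15240 with the 5 libraries alone. Lower calls were 19057 with TPM, of 40850 genes tested, and 22645 with no filter on low values, of 54119 genes tested. Without adjustment of the p-values 887 were higher and 12851 lower. With single libraries left out, the counts ran from 0 to 579 higher and from 0 to 14034 lower. Young replicate 1 and Aged replicate 1 had oocyte marker levels of 1.01 and 3.60 and enter the filter and the shared spread, not the difference; without both in the fit, over the same 28004 genes, an alternative chosen after seeing the data, 851 genes were called higher and 15089 lower. Apart from the scaling and filters shown here, the cause of these shifts was not tested.

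With the replicate number as a block, limma called 0 genes higher and 0 lower (620 and 10750 at an unadjusted p under 0.05). Deviations of same-numbered libraries correlated at 0.016 and -0.012. The deviations of the 2 Aged + LRP1low libraries mirror each other, so this check cannot tell whether same-numbered libraries share animals. The labels do not say that a number marks shared animals, and for that reason the pairing is not used in the report.

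Of 75 named genes, 6 turned sign under quantile normalization, to 0.55 for Lama5, 0.28 for Rnf41, 1.25 for Nadk, 0.052 for Bst1, 0.62 for Chek2 and 0.75 for Tiprl. mt-Cytb moved from -0.21 to 0.25 with TPM and from -0.80 to 0.24 with 1 library left out (0.24 without Aged + LRP1high library 2), and mt-Atp6 from -0.26 to 0.20 with TPM and from -1.08 to 0.74 with 1 library left out (0.74 without Aged + LRP1high library 3). Of the 31 list medians 5 changed sign or fell to 0 under quantile normalization and 6 at a minimum of 10 FPKM, where 7 lists had no gene tested. The shallow Aged + LRP1low libraries limit what can be said of low genes.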

Other observations

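The 7 oocyte libraries outside the comparison also differed in oocyte marker level. As mean log2(FPKM + 1) of the 10 markers, the Young libraries had 1.01, 6.43 and 9.31, the Aged libraries 3.60 and 9.35, and the Aged + Unsorted libraries 9.16 and 10.02. The Aged + LRP1high libraries, at 9.42, 9.26 and 7.80, lay within that range, as did the Aged + LRP1low libraries at 2.53 and 3.33. The ratio of the tRNA median to the messenger RNA median of mitochondria was 1.26 in Young library 1 and 1.12 in Aged library 1, the libraries with the lowest marker levels among those 7, and 1.00 in Aged library 2, where the markers stood at 9.35.

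Spearman's correlation across the 28004 genes, which are not independent replicates, is given as a description. It was 0.655, 0.629 and 0.561 between the Aged + LRP1high libraries, 0.383 between the Aged + LRP1low libraries and 0.128 to 0.280 between the groups. Aged + LRP1high library 1 had a correlation of 0.891 with Young library 3, higher than with either library of its own group. For both Aged + LRP1low libraries the closest of the other 7 was Young library 1, at 0.409 and 0.231.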
